A study of Sus scrofa with 12 samples.

Results

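The genes described here are 34 markers of leukocytes, the white blood cells, measured in loin muscle, the longissimus dorsi (LD), of Iberian pigs. They are a list of textbook markers, chosen with earlier results of these data known. They are 34 of the 28224 annotated genes on the chromosomes of the pig genome assembly Sscrofa11.1. The list holds 17 myeloid genes, which mark macrophages and their relatives, 4 pan-leukocyte genes, which most leukocytes share, 10 genes of T and natural killer (NK) cells, and 3 genes of B cells. The T, NK and B genes together are called lymphoid below.

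The muscle came from 12 castrated male Iberian pigs that finished fattening outdoors on acorns and grass. The H group held 6 pigs with a high breeding value for intramuscular fat (IMF) and the L group 6 pigs with a low one. The labelled IMF was 10.62 to 13.8% for H and 1.7 to 2.28% for L. The study's text gives a mean for H within these labels, but a mean for L above all of the L labels. This difference was not resolved here. Total RNA of each pig was sequenced as 1 library of paired 76-base reads, and the pigs are named H1 to H6 and L1 to L6 below.

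Macrophages live in the connective tissue around muscle fibres and in fat, where they take up dead cells and debris, present antigen and make complement proteins and cytokines. T cells, NK cells and B cells are fewer in resting muscle and depend on receptor complexes that signal through paired tyrosine motifs. The same kind of motif is carried by the adaptor proteins of macrophage receptors, so that receptor, adaptor and kinase genes can be read together. In muscle homogenates the RNA of these cells is mixed with that of the muscle fibres, and fewer cells of a type cannot be told apart from less RNA per cell.

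Levels are given in FPKM, fragments scaled to the length of a transcript and to the mapped fragments of its library. This unit is per length, so genes can be compared with each other, but a very short transcript can hold a very high value. Transcripts under 200 bases held 98.6 to 99.5% of the summed FPKM of a library. For each gene the FPKM of its assembled transcripts were summed and scaled between libraries. A gene without a transcript in a library is described as listed at 0, since a transcript that was not assembled, or that was joined to a neighbouring gene, also gives 0. Of the 34 genes, 19 were listed above 0 in all 12 libraries, 12 in some of them and 3 in none. The libraries listed between 22 (H2) and 30 (H3 and L6) of the 34.

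The deposited libraries held 30535 to 44609 assembled transcripts each. Their read depth is not in the values, but the coverage that corresponds to 1 FPKM grows with it and ran from 7.50 to 11.5. As a check of the tissue, the muscle genes DES, MYLPF, TNNC2, TNNT3 and TNNI2 were between 915 and 12660 FPKM in every pig, while ACTA1, MYH1, MYH2 and MYH4 were listed at 0 in all 12 libraries, and MYH7 and CKM in 2.

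Myeloid genes stood far above lymphoid genes. The summed level of the 17 myeloid genes was 64.2 FPKM ± 18.0 (SD, n = 12 pigs), and that of the 13 lymphoid genes was 6.08 FPKM ± 1.21 (SD, n = 12). The ratio of the sums ran from 7.66-fold in L4 to 18.2-fold in L1, with a mean of 3.37 ± 0.33 on the log2 scale (SD, n = 12). Without the 3 complement genes C1QA, C1QB and C1QC the mean log2 ratio was 2.38 ± 0.36, and with the median of the genes in place of the sum it was 1.98. In every pig, 5 myeloid genes lay above each of the 13 lymphoid genes. The highest value of these 13 was 3.09 FPKM, for NKG7 in H2. Above 1 FPKM in all 12 pigs there were 8 of the 17 myeloid genes but 1 of the 13 lymphoid genes, CD4. Some lymphoid genes outside the list were listed at higher FPKM in some pigs, GZMB and EOMES among them, as given below with their limits.

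**Figure D1:**
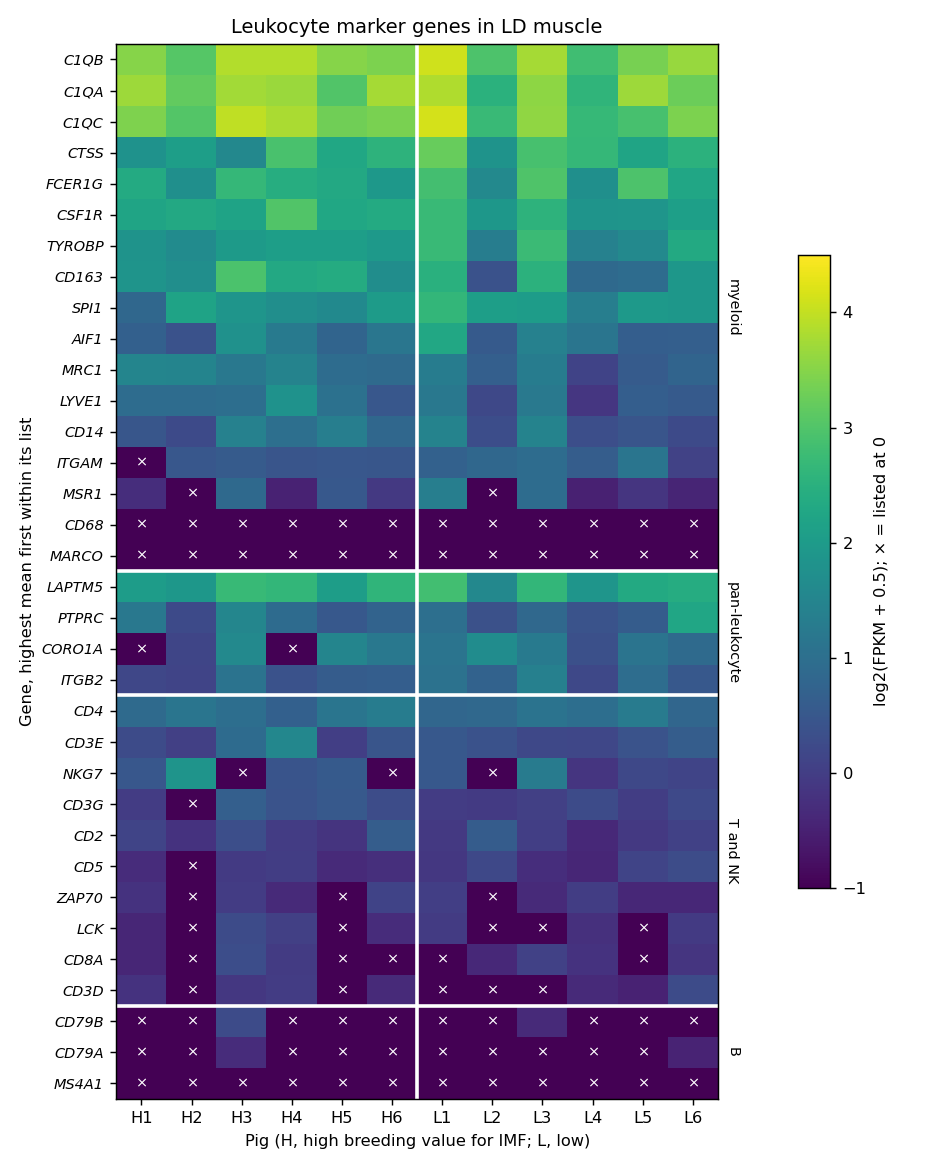
Heat map of the 34 marker genes (rows, by list and highest mean first) in the 12 pigs (columns), with colour giving log2(FPKM + 0.5) and a cross where a gene is listed at 0. The 3 C1Q genes form the brightest rows, and the B cell rows are almost all crosses.

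C1QA, C1QB and C1QC encode the 3 chains of C1q, the protein that starts the classical complement pathway and that tissue macrophages make themselves. They were the 3 most abundant of the 34 genes. C1QB averaged 11.09 FPKM over the 12 pigs, C1QA 10.4 and C1QC 10.3, and these means lay well within the spread among pigs. The genes lie next to each other on the plus strand of chromosome 6 of Sscrofa11.1, C1QA at chr6:80586259-80589213, C1QC at chr6:80592591-80597464 and C1QB at chr6:80601680-80606076.

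In the H pigs C1QB ran from 7.83 FPKM (H2) over a median of 10.8 to 14.2 (H4). In the L pigs it ran from 6.48 (L4) over a median of 10.9 to 16.6 (L1). The extremes of both sides were L pigs and the H values lay inside the L range. The H pigs averaged 1.07 times the L pigs on the log2(FPKM + 0.5) scale (95% interval 0.761 to 1.5, limma, adjusted p = 0.936).

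C1QA ran from 7.56 (H5) over 12.4 to 13.1 FPKM (H6) in H, and from 5.23 (L2) over 10.2 to 13.8 (L1) in L. C1QC ran from 7.67 (H2) over 10.2 to 15.2 (H3) and from 5.94 (L4) over 8.57 to 17.2 (L1). Both overlapped widely between the groups. The difference of H from L was 1.2-fold for C1QA (95% interval 0.826 to 1.76) and 1.19-fold for C1QC (0.809 to 1.75), neither past the threshold of limma. The assembled transcripts covered 85.8% of the annotated exonic bases of C1QB (median over libraries), 87.9% of C1QC and 59.4% of C1QA. Between libraries the share for C1QA ran from 19.6% in H1 and H2 to 62.3% in H3. It was 24.5% in H5 and at least 50% in the other pigs. Without transcripts under 200 bases the log2 fold change of C1QA was 0.12 in place of 0.27. The part of this uneven coverage in the C1QA values was not tested.

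The 3 chains followed each other from pig to pig, most closely C1QB and C1QC. For this pair Pearson's r of log2(FPKM + 0.5) was 0.953 over the 12 pigs and Spearman's rho 0.951 (permutation test with 100000 resamples, two-sided, both p = 1e-05, the smallest that they can give, adjusted p = 0.00012 over 12 pairs). It was 0.966 within the H pigs, 0.963 within the L pigs, and 0.923 without L1 and L4, the pigs farthest from the median. C1QA was correlated less closely, with r = 0.776 to C1QB (rho 0.601) and 0.756 to C1QC (rho 0.720), adjusted p = 0.017 for each r in the same permutation test. Without L2 and L4, the pigs with the least C1QA, these fell to 0.487 and 0.50, so that they rest in part on those animals.

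**Figure D2:**
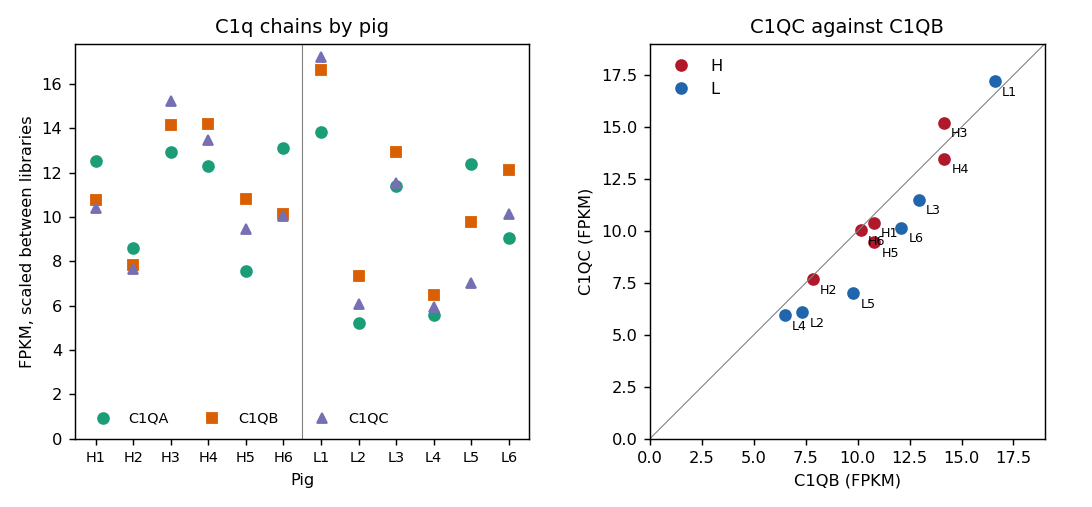
Left, FPKM of C1QA, C1QB and C1QC in each pig, with the H pigs left of the line. Right, C1QC against C1QB in FPKM, 1 point per pig, with the line of equal values; the points run from L4 (6.48 and 5.94) to L1 (16.6 and 17.2).

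The sequences before the annotated starts of the 3 genes are shown because these neighbours moved together. PU.1, the product of SPI1, is a transcription factor of the ETS family that myeloid cells depend on, and it binds a core of GAGGAA. Each line gives the 250 bases before the annotated start in RefSeq, read from Sscrofa11.1 on the plus strand, with capitals where GAGGAA or its reverse complement TTCCTC occurs.
C1QA, chr6:80586009-80586258: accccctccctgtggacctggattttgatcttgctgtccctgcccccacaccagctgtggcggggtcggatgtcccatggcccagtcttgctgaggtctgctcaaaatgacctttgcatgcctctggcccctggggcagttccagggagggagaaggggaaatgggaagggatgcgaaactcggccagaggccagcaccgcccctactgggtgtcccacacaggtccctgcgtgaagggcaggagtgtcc
C1QC, chr6:80592341-80592590: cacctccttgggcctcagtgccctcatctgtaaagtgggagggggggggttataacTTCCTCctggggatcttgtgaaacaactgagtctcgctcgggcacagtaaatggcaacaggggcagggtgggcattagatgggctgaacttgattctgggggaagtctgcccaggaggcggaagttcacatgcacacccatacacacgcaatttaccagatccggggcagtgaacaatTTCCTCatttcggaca
C1QB, chr6:80601430-80601679: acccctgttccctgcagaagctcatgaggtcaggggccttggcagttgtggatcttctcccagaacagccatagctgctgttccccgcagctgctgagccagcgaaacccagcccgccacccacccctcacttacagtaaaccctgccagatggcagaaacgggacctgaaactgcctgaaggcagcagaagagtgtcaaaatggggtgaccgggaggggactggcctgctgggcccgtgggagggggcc
These letters occur at 2 places before C1QC and at none before C1QA or C1QB. In windows of 300 bases, 250 before and 50 after the start, GAGGAA on either strand was found for 8 of the 17 myeloid, 2 of the 4 pan-leukocyte and 7 of the 13 lymphoid genes, and in 25.9% of the 19559 windows of all protein-coding genes. SPI1 itself and MRC1 held 3 matches each. The longer ETS letters CAGGAAG, which can overlap it, were found for 4 myeloid, 3 pan-leukocyte and 5 lymphoid genes and in 10.3% of all windows. The RUNX letters TGTGGT were found for 6, 1 and 3 genes (16.1% of all windows) and the octamer letters ATGCAAA for 2, 1 and 1 (4.04%). A match of letters is a description of the window and not a bound site.

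Among the receptors of macrophages, CSF1R, the receptor for the growth factors CSF1 and IL34, averaged 4.87 FPKM ± 1.34 in the H pigs and 4.13 ± 1.30 in the L pigs (SD, n = 6 each). CD163, the scavenger receptor for haemoglobin bound to haptoglobin, averaged 4.15 ± 1.70 and 2.88 ± 2.00. MRC1, the mannose receptor of resident macrophages, averaged 1.91 ± 0.45 and 1.30 ± 0.56. LYVE1, a hyaluronan receptor of resident macrophages and lymphatic vessels, averaged 1.63 ± 0.70 and 1.12 ± 0.59. CD14, which binds bacterial lipopolysaccharide, averaged 1.44 ± 0.60 and 1.25 ± 0.77.

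MRC1 had the smallest p of the 34 genes. Its 6 H values were 1.37 to 2.35 FPKM with a median of 2.03, and its 6 L values 0.58 to 1.99 with a median of 1.15. All H pigs lay above 4 of the L pigs, and L1 and L3 lay among the H pigs. The difference was 1.38-fold (95% interval 0.995 to 1.90, limma p = 0.0533, adjusted p = 0.688, exact permutation test, two-sided, p = 0.061). CD163 had the highest fold of H over L, 1.54-fold (95% interval 0.859 to 2.75, limma adjusted p = 0.752), with the lowest value in L2 (0.799 FPKM) and the highest in H3 (7.15). With only those transcripts counted that match an annotated intron chain, the log2 fold change of CD163 turned from 0.62 to -0.69 and that of MRC1 from 0.46 to -0.10. CD163 and MRC1 were correlated over the pigs (r = 0.678, rho = 0.524, adjusted permutation p = 0.0373 for r and 0.126 for rho), more closely within the L pigs (0.825) than within the H pigs (-0.14), a difference that was not tested. With the values centred on the group means r was 0.590 and the adjusted permutation p 0.0786.

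MSR1, the class A scavenger receptor, was listed in 10 libraries, at 0 in H2 and L2 and at most 2.05 FPKM (L1). ITGAM, the alpha chain of the complement receptor Mac-1, was listed at 0 in H1 and ran from 0.866 to 0.984 FPKM in the other H pigs, and all L pigs listed it, from 0.556 to 1.69. MARCO, a scavenger receptor best known from lung and spleen macrophages, was listed at 0 in all 12 libraries.

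TYROBP (DAP12) and FCER1G (the Fc receptor gamma chain) encode adaptors that carry the signal of many myeloid and NK receptors. FCER1G ran from 2.85 (H2) over a median of 4.54 to 5.87 FPKM (H3) in H, and from 2.50 (L2) over 5.5 to 7.43 (L3) in L. The H range lay inside the L range, and the difference was 0.895-fold (95% interval 0.594 to 1.35, limma adjusted p = 0.910). TYROBP ran from 2.64 to 3.74 FPKM in H, and from 2.01 to 6.27 in L, so that L1 (6.09), L3 (6.27) and L6 (4.59) lay above all H pigs and L2, L4 and L5 below them. The SD of its log2 values was 0.17 in H and 0.66 in L. The adaptors were correlated with each other (r = 0.662, rho = 0.608, adjusted permutation p = 0.0391 for r and 0.0857 for rho), and without L1 and L3 r was 0.422.

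CTSS, the lysosomal protease cathepsin S, which trims the chain that guards class II molecules, ran from 2.45 (H3) over 4.05 to 7.07 FPKM (H4) in H, and from 3.04 (L2) over 5.59 to 8.79 (L1) in L. The groups overlapped over most of their range and the difference was 0.779-fold (95% interval 0.521 to 1.17, limma adjusted p = 0.786). The assembled transcripts covered 72.3% (H6) to 95.1% (H3) of the annotated exonic bases of CTSS in H1, H3, H4 and H6. In H2, H5 and all L pigs they covered 40.6% (L4) or less. The part of this uneven coverage in the CTSS values and in their difference between the groups was not tested. SPI1 averaged 2.90 FPKM ± 0.96 in H and 3.63 ± 1.19 in L (SD, n = 6 each), with its lowest value in H1 (1.29) and its highest in L1 (5.72). AIF1, the calcium-binding protein IBA1 of macrophages and microglia, averaged 1.62 ± 0.76 and 1.90 ± 1.32 and was highest in L1 (4.43).

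CD68, the lysosomal glycoprotein used to stain macrophages, was listed at 0 in all 12 libraries, but its exons were not empty. It lies at chr12:52874754-52877256 on the plus strand, 505 bases after the end of EIF4A1, which encodes a translation initiation factor, and before MPDU1. In 11 of the 12 libraries assembled transcripts ran through the gap from EIF4A1 into CD68, and covered 74.7 to 100% of the exonic bases of CD68. By shared bases these joined transcripts were assigned to EIF4A1, in H2 also to MPDU1, and in 6 of the 11 libraries a single transcript reached on into MPDU1. In L5 no transcript touched CD68. The value 0 therefore gives no level of CD68, and the myeloid sums do not contain this gene.

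**Figure D3:**
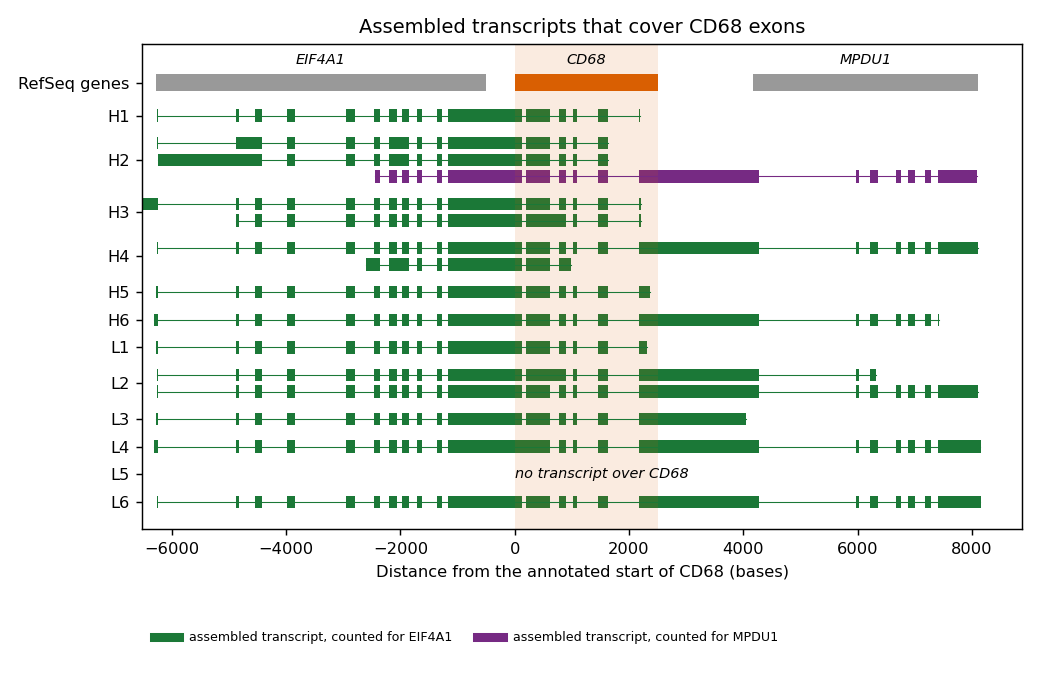
Assembled transcripts over CD68 in each pig against the distance from its annotated start in bases, with exons as boxes, the RefSeq genes on top and CD68 shaded. In 11 pigs the transcripts join EIF4A1 exons to CD68 exons, and in L5 there is none.

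The 250 bases before CD68 lie inside this gap and were exonic in the joined transcripts of all 11 libraries, which is why they are shown, on the plus strand, with the ETS letters CAGGAAG in capitals.
CD68, chr12:52874504-52874753: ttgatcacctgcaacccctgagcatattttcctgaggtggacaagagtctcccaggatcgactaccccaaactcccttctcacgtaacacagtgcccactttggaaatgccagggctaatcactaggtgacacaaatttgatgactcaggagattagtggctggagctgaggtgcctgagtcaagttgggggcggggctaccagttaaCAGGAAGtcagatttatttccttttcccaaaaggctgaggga

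The pan-leukocyte genes had intermediate levels. LAPTM5, a lysosomal membrane protein of blood cells, ran from 3.29 (H2) over 4.63 to 6.03 FPKM (H3) in H, and from 2.48 (L2) over 4.68 to 6.61 (L1) in L, with nearly equal medians. PTPRC, the phosphatase CD45 on all leukocytes, ran from 0.677 over 1.28 to 2.38 FPKM in H and from 0.796 over 1.17 to 4.27 in L. Its highest value, in L6, came for the greater part from a transcript of 212 bases with a deposited 3.23 FPKM, beside a transcript of 4735 bases with 1.19. CORO1A, an actin-binding protein of leukocytes, was listed at 0 in H1 and H4 and ran from 0.611 to 2.50 FPKM in the other H pigs, and all L pigs listed it, from 0.773 to 2.70. Its fold of H over L was the lowest of the tested genes, 0.632-fold (95% interval 0.308 to 1.30, limma adjusted p = 0.782), with the libraries listed at 0 included. ITGB2, the beta chain that pairs with ITGAM, averaged 0.958 FPKM ± 0.387 in H and 1.32 ± 0.53 in L (SD, n = 6 each). ITGAM and ITGB2 had r = 0.578 and rho = 0.643 over the pigs (adjusted permutation p = 0.0555 and 0.0857).

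Of the T and NK genes, CD4, the co-receptor of helper T cells, was the most abundant and the most even. It ran from 1.10 (H4) over 1.60 to 2.00 FPKM (H6) in H, and from 1.26 (L1) over 1.4 to 1.93 (L5) in L. Its coefficient of variation was 18.2%, where the median of all genes tested was 33.6%, and the difference of H from L was 1.04-fold (95% interval 0.842 to 1.27, limma adjusted p = 0.947).

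CD3D, CD3E and CD3G encode chains of the CD3 complex, which passes on the signal of the T cell receptor, and lie together on chromosome 9 between bases 45619730 and 45656779. CD3E was listed in all libraries, from 0.517 (H5) over 0.773 to 2.40 FPKM (H4) in H and from 0.621 (L4) over 0.818 to 1.04 (L6) in L. H3 (1.39) and H4 lay above all L pigs and the other H pigs among or below them. CD3G was listed at 0 in H2 and otherwise from 0.492 to 1.08 FPKM in H and from 0.455 to 0.692 in L. CD3D was listed in 7 libraries, 4 H and 3 L, at 0.225 to 0.698 FPKM. No pair of the 3 chains passed the adjusted permutation test over the pigs (r = 0.589 for CD3D and CD3E, rho 0.638, adjusted p = 0.0555 and 0.0857, with r from 0.441 to 0.452 for the other pairs).

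NKG7, a granule protein of NK and cytotoxic T cells, was listed at 0 in H3, H6 and L2, at 3.09 FPKM in H2, 1.93 in L3 and from 0.394 to 0.981 in the other pigs. CD2, an adhesion receptor of T and NK cells, ran from 0.375 over 0.538 to 1.05 FPKM in H and from 0.272 over 0.478 to 1.02 in L, with H6 and L2 highest. CD8A, the co-receptor of cytotoxic T cells, was listed in 7 libraries, CD5 in 11, LCK, the kinase that starts T cell receptor signalling, in 7, and ZAP70, the kinase that LCK activates, in 9, all at 0.729 FPKM or less. LCK and ZAP70 were correlated (r = 0.716, rho = 0.577, adjusted permutation p = 0.0348 for r and 0.0934 for rho), with the libraries listed at 0 included.

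B cell genes were listed in few libraries. CD79A, a signalling chain of the B cell receptor, was listed in H3 (0.311 FPKM) and L6 (0.228) alone, and its partner CD79B in H3 (0.692) and L3 (0.292) alone. MS4A1, which encodes CD20, was listed at 0 in all 12 libraries. The number of lymphoid genes listed ran from 4 in H2 to 11 in H3 and L6. The coverage per unit of FPKM was 8.48 in H2 and 7.50 in H5, which listed 4 and 6 lymphoid genes, and 11.3 in L6 and 9.79 in H3, which listed 11 each. L2, however, listed 6 at a coverage of 10.1 and L3 listed 9 at 8.39, and the part of depth in what was listed was not tested.

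The comparison of the H with the L pigs asked whether marker genes of immune cells differed between muscle with much and with little fat. A mean of at least 0.5 FPKM in either group was required, and 24 of the 34 genes passed it, 15 myeloid, 4 pan-leukocyte and 5 lymphoid (CD2, CD3E, CD3G, CD4 and NKG7). None of the 24 passed limma at an adjusted p under 0.1, where 0.00807% of the 12397 genes tested did. None had an unadjusted p under 0.05 in limma or in the exact permutation test, where 7.27% of all genes did in limma, and none had groups that did not overlap, against 0.557% of all genes. The adjusted p ran from 0.688 to 0.987.

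Of the 24 genes 14 had a higher mean log2 level in H and 10 a lower one, and 50.5% of all genes tested were higher in H. The median log2 fold change was 0.10 over the 15 myeloid genes, 0.07 over the 5 lymphoid genes and -0.18 over the 4 pan-leukocyte genes, beside 0.0027 over all genes tested. The myeloid genes ran from -0.47 (ITGAM) to 0.62 (CD163). The intervals show what these pigs could not resolve. The 95% interval of C1QB still held a fold of 1.5, that of CD163 a fold of 2.75, and CD4 had the narrowest, from 0.842 to 1.27. The summed myeloid level was 65.4 FPKM ± 11.8 in H and 63.0 ± 23.96 in L, and the summed lymphoid level was 6.45 ± 1.44 and 5.70 ± 0.91 (SD, n = 6 each). The log2 ratio of myeloid to lymphoid sums was 3.35 ± 0.17 in H and 3.40 ± 0.45 in L.

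**Figure D4:**
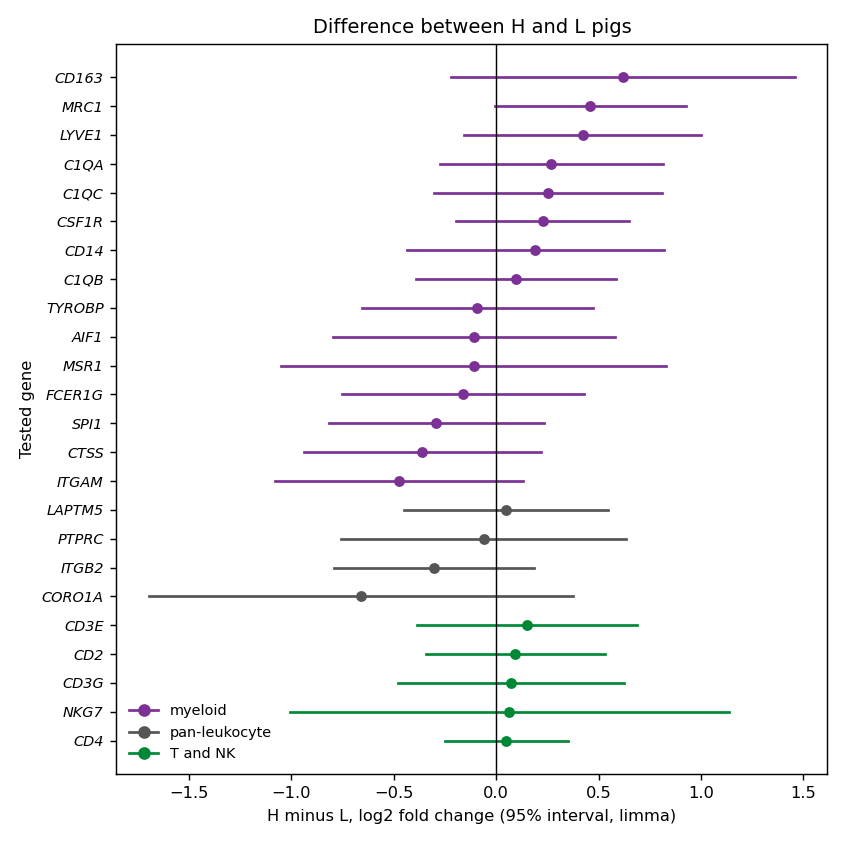
Log2 fold change of H minus L for the 24 tested genes, with the 95% interval of limma, coloured by list. Every interval includes 0, and the lower end for MRC1 comes nearest to it at -0.0077.

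The L pigs differed among themselves more than the H pigs in the myeloid genes. The SD of the log2 values was larger in L for 12 of the 15 tested myeloid genes, 3 of the 4 pan-leukocyte genes and 1 of the 5 lymphoid genes, and for 52.2% of all genes tested. The median SD over the myeloid genes was 0.42 in H and 0.56 in L, beside 0.35 and 0.36 over all genes. This was noticed in the values and no test of it was made. L1 had the highest value of all 12 pigs for 8 of the 15 myeloid genes and was among the highest 3 for 13 of them, and L3 was among the highest 3 for 10. L2 was among the lowest 3 for 13 and L4 for 11. The myeloid sum was 99.9 FPKM in L1 and 81.8 in L3 but 38.7 in L2 and 40.1 in L4. In the lymphoid sum L1 (5.47 FPKM) did not stand out, and the highest pigs were H3 (8.50) and H4 (7.93).

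**Figure D5:**
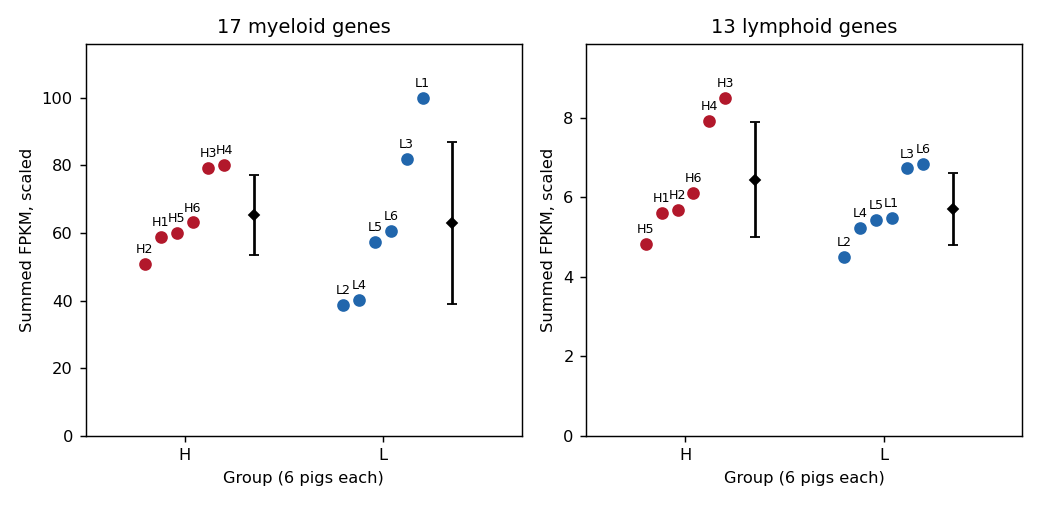
Summed FPKM of the 17 myeloid (left) and 13 lymphoid genes (right) in the H and L pigs, 1 point per pig, with the group mean and SD as a black diamond and bars. The L pigs spread from 38.7 to 99.9 FPKM in the myeloid sum and from 4.51 to 6.85 in the lymphoid sum.

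The ligands of CSF1R, which are outside the list, were paired with it as well. CSF1R had r = 0.525 with CSF1 (rho 0.434) and 0.371 with IL34 (rho 0.303), with adjusted permutation p of 0.105 and 0.235, and without H4 and L1 r was 0.459 and -0.094. Of the 12 pairs, 6 passed at an adjusted p under 0.05 with Pearson's r and 1, C1QB and C1QC, with Spearman's rho. Of the 6, the C1Q pairs and LCK with ZAP70 still passed with the values centred on the group means.

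Other genes of the same cells were read from lists beside the 34. Of 32 further myeloid genes tested, none passed limma and 1 had an unadjusted p under 0.05 in it. This was STAB1, a scavenger receptor of resident macrophages and sinusoidal endothelium, at 2.75 to 4.61 FPKM in H, listed at 0 in L2 and L4 and at 1.30 to 4.86 in the other L pigs (p = 0.027 in limma and 0.039 in the exact permutation test, adjusted limma p = 0.653). TLR7, a sensor of single-stranded RNA, CEBPA, a factor of myeloid cells and adipocytes, and MERTK, a receptor for dead cells, followed with p from 0.074 to 0.102. Of 11 further lymphoid genes tested none passed at an unadjusted limma p of 0.05, and CD247, the zeta chain beside CD3, came first (limma p = 0.145, exact permutation p = 0.126). Among them EOMES, listed in 7 libraries, was 58770.5 to 264622 FPKM in H1, H4, L1, L3 and L4 but at most 3.79 in the others. GZMB, also listed in 7, was 22.9 FPKM in H2, 20.7 in H6, 20.3 in L2 and 16.5 in L6. In H4 and L5 it was 7.38 and 5.41, and in H3 0.529. In the 5 pigs with high EOMES its values lay above those of all muscle genes checked, of which MYLPF reached 12660 FPKM. A very short transcript can hold a very high FPKM, and the source of these high values was not tested. They are not read here as levels of lymphoid cells. Of 10 ligands that attract or feed these cells none did either, with CCL21, CXCL10, CXCL12 and CX3CL1 at p from 0.094 to 0.240. Of 3 granulocyte and mast cell genes tested 1 had a p under 0.05, MS4A2, the beta chain of the mast cell receptor for IgE, with 3.13 FPKM ± 2.07 in H and 1.34 ± 0.53 in L (limma p = 0.021, exact permutation p = 0.028, adjusted limma p = 0.650).

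Markers of other cells in the muscle stood beside these as follows. The summed level of 5 adipocyte genes was 71.9 FPKM ± 40.9 in H and 41.0 ± 22.0 in L, and of 6 erythroid genes 214.4 ± 74.5 and 108.2 ± 40.3 (SD, n = 6 each). The erythroid gene HBB, the beta chain of haemoglobin, had an unadjusted limma p of 0.010 and an adjusted p of 0.592. AHSP, a chaperone of the alpha chain of haemoglobin, was listed in 6 libraries and had an unadjusted limma p of 0.009 and an adjusted p of 0.589. The part of these genes in the leukocyte values was not tested. On the log2(FPKM + 0.5) scale all 5 adipocyte, 5 blood endothelial and 6 fibroblast genes tested had a higher mean in H, COL1A1 by only 0.0054, with 1, 2 and 0 of them at an unadjusted p under 0.05 and none past the adjusted threshold. The study, with a different test, reported the adipocyte genes ADIPOQ, PLIN1 and CIDEC as higher in H. Of the 5 lymphatic genes 4 had a higher mean log2 level in H and 1, PROX1, a lower one, and 1 had an unadjusted limma p under 0.05. This was FLT4, a receptor of lymphatic vessels, at 0.298 to 1.17 FPKM in H, listed at 0 in L3 and at 0.170 to 0.874 in the other L pigs (limma p = 0.023, exact permutation p = 0.019, adjusted limma p = 0.650). LYVE1, which lymphatic vessels share with macrophages, had a limma p of 0.138. L1, the pig with the highest myeloid sum, was at 37.3 FPKM in the adipocyte sum, where the median over all pigs was 47.0, and had the highest lymphatic endothelial sum of the 12 pigs, 13.5 FPKM beside a median of 7.46. The part of these cells in its myeloid values was not tested.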

How the data were processed

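The deposited values are the FPKM that the authors obtained per assembled transcript. Per the labels and the study's methods, Trim Galore, TopHat2 2.1.0 (build Sscrofa11.1) and Cufflinks 2.2.1 were used, the last on each library separately. The files carry no gene names and no counts. Here each transcript was assigned to the RefSeq gene on the same strand with most shared exonic bases, and FPKM were summed per gene and scaled between libraries by median ratios. Of 171131 introns in the files, 98.263% had standard splice site bases in this assembly. The 34 symbols were matched directly except ZAP70, found by its product name. In the lists beside them CYBB was matched by a synonym and GZMA matched 2 genes.

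Genes whose mean reached 0.5 FPKM in either group were tested with limma 3.58.1 (R 4.3.3, variance trend, two-sided) on log2(FPKM + 0.5), with Benjamini-Hochberg adjustment over all 12397 genes and a threshold of 0.1. Fold changes are on this scale and understate those of low genes. Intervals are those of limma. The exact permutation test used all 924 arrangements. The fit was tested on simulated data with known changes. Of 13 pairs of partner genes 12 entered the correlations, since CD79A and CD79B were listed in too few libraries. Alternatives were pseudocounts 0.1 and 1, no filter or 1 FPKM, FPKM as deposited, quantile normalization, annotated intron chains, no transcripts under 200 bases, no trend, array weights, a term for depth, the individual number as a replicate block, other summaries of the lists, each pig left out, and H4 and L3 left out. The 34 genes and the other lists were chosen with earlier results of these data known. All 34 genes are accounted for. By rule, values in the pigs are given for the 5 myeloid, 3 pan-leukocyte and 5 lymphoid genes with the highest means and for the C1Q, CD3 and B cell genes, and of the lists beside the 34 at most 4 genes with the smallest p are named. Other values in single pigs, those of SPP1, EOMES, GZMB, CPA3 and HDC, and the further B cell genes were chosen after they were seen. Slaughter batches and sequencing lanes of the pigs are not given in the sources used here, and each pig is 1 animal with 1 library.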

Additional observations from a re-analysis of the deposited data

Results flagged for a closer look

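In 50 groups of 6 values (each tested gene and the myeloid to lymphoid ratio, in H and in L), 3 had 1 pig far from the other 5 by Dixon's criterion on log2 values, where chance gives about 1 in 20 groups. CSF1R was 7.58 FPKM in H4 and 4.09 to 4.63 in the other H pigs. The value in H4 was the sum of a transcript of 21 exons, with a deposited 5.63 FPKM, and a shorter one of 9 exons, with 2.26. ITGAM was listed at 0 in H1 and at 0.866 to 0.984 FPKM in the other H pigs. No transcript touched its exons in H1. PTPRC was 4.27 FPKM in L6 and 0.796 to 1.5 in the other L pigs. Of the L6 value, 3.23 FPKM as deposited came from a transcript of 3 exons and 212 bases at the start of the gene.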

How the results depend on the processing

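None of the marker genes passed the threshold under any of the 25 alternatives, with a smallest adjusted p of 0.623 (limma, MRC1 with array weights). At an unadjusted p under 0.05 there were 0 to 2 genes with 1 pig left out, namely MRC1 (without H5, H6, L1 or L3) and CD163 (without L3, log2 fold change 0.82). MRC1 also did so with array weights (0.52) and without H4 and L3 (0.52). The individual numbers in the labels did not pair the pigs (correlations of the deviations of same-numbered pigs from -0.076 to 0.059). With the number as a replicate block 0 marker genes were called and the medians were 0.10 (myeloid) and 0.07 (lymphoid), and the 1 call among all genes became 0. Of 591 fits of single genes 38 had the opposite sign, in 15 genes, each with an unadjusted p of 0.316 or more. Log2 fold changes that turned were -0.071 (CD3G) and -0.11 (NKG7) with pseudocount 0.1, -0.014 (CD2), -0.012 (CD3G) and -0.024 (CD4) with quantile normalization, and 0.14 (AIF1), -0.059 (C1QA), -0.69 (CD163), -0.0086 (CD3E), 0.48 (FCER1G) and -0.10 (MRC1) with annotated intron chains. Without H4 and L3 they were -0.085 (CD3E), 0.15 (MSR1) and 0.026 (TYROBP). With 1 pig left out the ranges that crossed 0 were -0.26 to 0.13 (AIF1), -0.031 to 0.23 (C1QB), -0.011 to 0.21 (CD2), -0.048 to 0.25 (CD3E), -0.029 to 0.30 (CD3G), -0.0085 to 0.12 (CD4), -0.090 to 0.16 (LAPTM5), -0.32 to 0.15 (MSR1), -0.26 to 0.31 (NKG7), -0.20 to 0.21 (PTPRC) and -0.23 to 0.054 (TYROBP). The myeloid median ran from -0.031 (without L4) to 0.23 (without L1), and the lymphoid median from 0.023 to 0.15, with -0.012 under quantile normalization. The log2 ratio of myeloid to lymphoid levels was 3.30 to 3.41 with 1 pig left out and 1.98 with medians in place of sums. Of the 12 pairs, 3 passed without H4 and L3 in place of 6. The cause of these changes was not tested. Depth cannot be read from FPKM alone, and the term for depth used the coverage per unit of FPKM. The read totals per pig that the study gives were not used here. At an equal length of transcript, levels under 1 FPKM, most lymphoid genes among them, rest on fewer fragments than higher levels. The numbers of fragments are not in the values.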

Other observations

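L1 and L3, the pigs with the highest myeloid sums, also had the most SPP1, the gene of osteopontin, a secreted protein made by some tissue macrophages as well as by other cells. SPP1 was 28.1 FPKM in L1 and 13.2 in L3, but 0.650 in H4, whose myeloid sum of 80.1 FPKM was close to the 81.8 of L3. It was 7.10 in H3, 5.29 in H6, 1.59 in H5 and 1.24 in L4, and from 0.336 (L2) to 0.931 in the other pigs. SPP1 was looked at after its values were seen and no test was made. The study, with its own test, reported SPP1 as lower in H, and its quantitative PCR gave the same direction.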
